A study of Mus musculus with 6 samples.

Results

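The genes of the calcineurin, NFAT and Rcan families were followed in cultured mouse cortical neurons that were depolarized with KCl. The set held 10 of the 43432 genes listed in the expression tables, found by their symbols after the Ensembl identifiers had been matched to names. It comprised 3 subunits of the phosphatase calcineurin (Ppp3ca, Ppp3cb and Ppp3r1), 4 NFAT transcription factors (Nfatc1, Nfatc2, Nfatc3 and Nfatc4) and 3 regulators of calcineurin (Rcan1, Rcan2 and Rcan3). All 10 had counts in every library and all entered each test of expression.

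The cells were cortical neurons from wild-type C57BL/6 embryos at E16.5, male and female pooled, grown for 7 days. All cultures, the 0 h controls included, had been silenced overnight with 1 μM tetrodotoxin (TTX), which blocks sodium channels, and 100 μM DL-AP5, which blocks NMDA receptors. KCl at 55 mM was then applied for 2 h or 6 h, or not at all (0 h), with 2 libraries of poly(A) RNA at each time. The labels call these biological duplicates without saying whether the pairs came from separate cultures, so p-values measure only the spread between these libraries.

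Calcineurin is a phosphatase made of a catalytic subunit and a regulatory subunit, and it is switched on when calcium and calmodulin bind it. Depolarization opens voltage-gated calcium channels, and active calcineurin removes phosphates from NFAT proteins in the cytoplasm, after which these factors enter the nucleus and bind DNA. Rcan proteins bind calcineurin and can restrain it. A transcript of Rcan1 starts at an internal promoter that is a known target of NFAT, so Rcan1 is often used as a reporter of calcineurin activity.

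Total expected counts were between 25959298 and 28573067 per library, and 18767 to 19212 genes had a count. All 11 markers of neurons were at 1 TPM (a unit scaled for transcript length and library total) or more at every time, and they summed to 3910 to 3979 TPM at 0 h, 3328 to 3512 TPM at 2 h and 3737 to 3889 TPM at 6 h. Markers of other cells were also present. Those of astrocytes summed to 591.1 to 632.1 TPM at 0 h, 566.9 to 567.5 TPM at 2 h and 456.8 to 474.3 TPM at 6 h, with 7 of 7 at 1 TPM or more. Those of the oligodendrocyte lineage ranged from 96.2 to 149.3 TPM and those of dividing progenitors from 79.4 to 105.0 TPM, while 2 of 6 markers of microglia and at most 1 of 6 of vascular cells reached 1 TPM. The part of these cells in the results was not tested. In such bulk RNA, fewer cells of a type and less RNA per cell cannot be told apart. The 2 h replicates differed from each other more than those of the other times, and the difference followed GC content (Spearman's rho -0.705 across 12290 genes, against -0.389 at 0 h and -0.292 at 6 h, as a description), so values after a correction for GC content stand beside printed values whose sign, call or side of an adjusted p of 0.05 it changed.

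Nfatc2 was the member that moved most, and it peaked at 2 h. Genes were called in DESeq2 at an adjusted p of 0.05 or less together with a log2 fold change above 1 in size. At 2 h against 0 h, 1 of 10 members was called higher, Nfatc2, and none lower, while 3.62% of all genes tested were called higher and 5.94% lower. By the adjusted p alone, whatever the size of the change, 2 members were higher and 0 lower, against 12.3% and 14.2% of all genes. With GC correction these numbers were 6 and 0, against 20.8% and 14.4%, the added members being the 3 subunits and Rcan1. At 6 h against 0 h, Nfatc1 and Nfatc2 were called higher, 2 of 10, and none was called lower, beside 9.1% and 10.2% of all genes. By the adjusted p alone, 6 members were higher and 1 lower at 6 h, where 23.7% of all genes were higher and 21.7% lower, and with GC correction 5 and 1, against 26.6% and 23%. At 6 h against 2 h, 1 member was called lower, again Nfatc2, and none higher, against 8.02% and 10.1% of all genes, and by the adjusted p alone 2 were lower and 2 higher, against 21.2% and 24.1%. GC correction made these 5 lower, the 3 subunits among them, and 2 higher, against 26.3% and 24.7%. The members' median log2 fold change was 0.24, 0.48 and 0.01 in the 3 comparisons, while that of all genes tested was 0.02, 0.00 and -0.01. The comparisons with 0 h share the same control libraries.

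**Figure D1:**
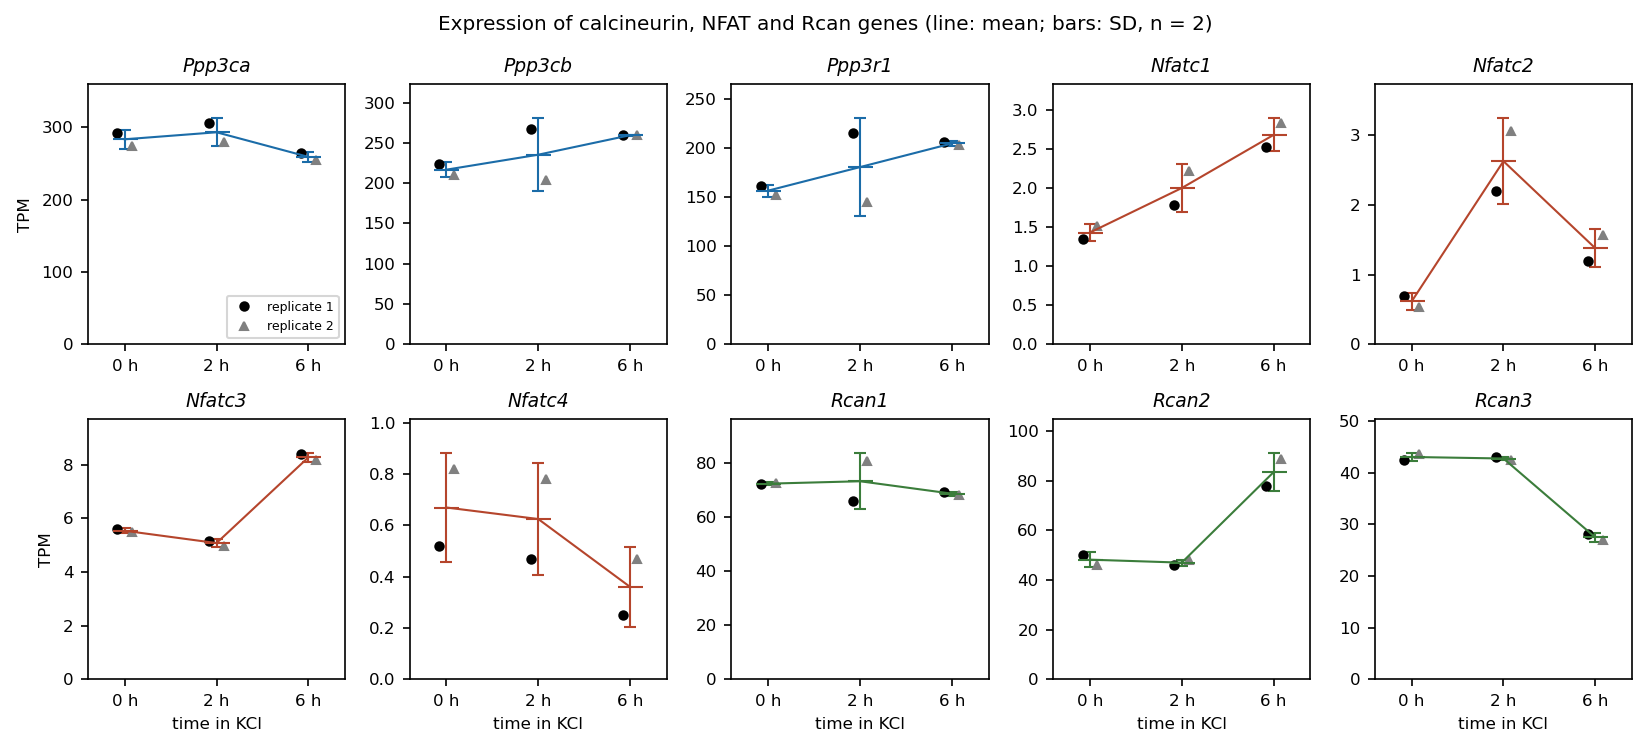
Expression of the 10 genes in TPM (vertical axis, from 0, with its own scale in each panel) at 0, 2 and 6 h in KCl (horizontal axis). Circles and triangles are replicates 1 and 2, horizontal marks joined by a line are means, and bars are SD (n = 2). The Nfatc2 panel peaks at 2 h with 2.2 and 3.07 TPM, whereas the Rcan1 panel stays between 66.1 and 80.8 TPM.

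The members lay in tiers of abundance. At 0 h the mean levels were 283.3 TPM for Ppp3ca, 216.8 TPM for Ppp3cb and 156.7 TPM for Ppp3r1. The Rcan genes followed with 72.5 TPM for Rcan1, 48.2 TPM for Rcan2 and 43.1 TPM for Rcan3. The NFAT genes were lowest, with 5.54 TPM for Nfatc3, 1.43 TPM for Nfatc1, 0.67 TPM for Nfatc4 and 0.615 TPM for Nfatc2. In this order only Nfatc4 and Nfatc2 overlapped between their replicates. At 2 h the replicates of Ppp3cb and Ppp3r1 overlapped, as did those of Nfatc1 and Nfatc2, and at 6 h those of Ppp3ca and Ppp3cb. These levels were not tested between genes.

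Ppp3ca encodes the catalytic alpha subunit, which is abundant in brain, and lies at chr3:136670124-136937727 (GRCm38). It was at 292.6 and 274.0 TPM at 0 h, 306.5 and 279.4 TPM at 2 h, and 264.0 and 254.0 TPM at 6 h. The 0 h and 2 h levels overlapped and the 6 h levels lay below both. In normalized counts, which are scaled by size factors and not by transcript length, it was at 9825 ± 531 at 0 h, 11999 ± 1959 at 2 h and 10774 ± 266 at 6 h (SD, n = 2). Its log2 fold change was 0.29 (SE 0.14, adjusted p 0.135) at 2 h and 0.13 (adjusted p 0.484) at 6 h, both in DESeq2, and neither was called.

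Ppp3cb encodes the catalytic beta subunit and lies at chr14:20499364-20546573. Its levels were 223.6 and 210.0 TPM at 0 h, 267.3 and 203.5 TPM at 2 h, and 259.3 and 259.9 TPM at 6 h. In TPM the 2 h replicates stood on either side of the other libraries. In normalized counts both 2 h libraries (13194 and 10044) lay above both 0 h libraries (9806 and 9195). The log2 fold change by DESeq2 was 0.29 (SE 0.15, adjusted p 0.167) at 2 h and 0.40 (SE 0.15, adjusted p 0.0254) at 6 h, under the fold threshold. The GC content of its transcripts was 37.5%, the lowest of the 10. With GC correction the log2 fold change became 0.60 (adjusted p 4.83e-04) at 2 h, 0.04 at 6 h, and -0.56 (adjusted p 7.45e-04) at 6 h against 2 h, where it was 0.11 without the correction.

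Ppp3r1 encodes the calcium-binding regulatory subunit B and lies at chr11:17159263-17200375, where it overlaps Wdr92 on the same strand. It was at 161.0 and 152.4 TPM at 0 h, 215.8 and 145.6 TPM at 2 h, and 206.3 and 203.2 TPM at 6 h. As for Ppp3cb, replicate 1 was the higher of the 2 h libraries and replicate 2 lay under the controls in TPM. In normalized counts both 2 h libraries (8876 and 5887) lay above both 0 h libraries (5824 and 5429). In DESeq2 the log2 fold change was 0.39 (SE 0.20, adjusted p 0.136) at 2 h and 0.57 (SE 0.20, adjusted p 0.0103) at 6 h. With GC correction it was 0.58 (adjusted p 1.15e-13) at 2 h, 0.33 at 6 h and -0.25 (adjusted p 0.00194) at 6 h against 2 h, again with the sign of the last comparison turned from 0.18. GC correction gave Ppp3ca a log2 fold change of 0.38 (adjusted p 1.24e-04) at 2 h and -0.29 (adjusted p 0.00339) at 6 h against 2 h. None of the 3 subunits was called with or without the correction, but for Ppp3cb and Ppp3r1 it decided whether 2 h or 6 h was the higher.

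Ppp3cc, the gene of the third catalytic subunit, was not a member of the set and was taken from the list of calcineurin partners. It fell between 2 h and 6 h. Its levels were 24.3 and 24.1 TPM at 0 h, 22.3 and 21.3 TPM at 2 h, and 6.69 and 5.5 TPM at 6 h. The 6 h libraries lay far below the other 4. In log2 fold change it was at 0.03 (adjusted p 0.941) at 2 h, -1.81 (SE 0.18, adjusted p 4.69e-22) at 6 h and -1.84 (SE 0.18, adjusted p 2.26e-22) at 6 h against 2 h. Its share of the summed catalytic TPM was 4.49% and 4.74% at 0 h, 3.74% and 4.23% after 2 h, then 1.26% and 1.06% at 6 h. The summed TPM of the catalytic subunits was 524.3 ± 22.8 at 0 h, 550.2 ± 65.0 after 2 h and 524.7 ± 7.45 after 6 h (SD, n = 2), and these ranges overlapped.

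The NFAT genes encode the transcription factors that calcineurin acts on. Nfatc2 lies on the minus strand at chr2:168476410-168601657. It had 35 and 26 expected counts at 0 h, 174 and 225 after 2 h, then 73 and 82 at 6 h, which correspond to 0.7 and 0.53 TPM, 2.2 and 3.07 TPM, and 1.19 and 1.57 TPM. No library of one time overlapped those of another, on either scale. In normalized counts it went from 26.5 ± 6.48 at 0 h to 203.2 ± 41.6 after 2 h and back to 83.2 ± 7.13 by 6 h (SD, n = 2). On the log2 scale it rose by 2.94 (SE 0.35, adjusted p 1.71e-15) at 2 h and was higher by 1.65 (SE 0.36, adjusted p 2.21e-05) at 6 h than at 0 h. From 2 h to 6 h it fell by 1.29 on the log2 scale (SE 0.32, adjusted p 2.12e-04). Without 2 h replicate 2 this change was -1.05 (adjusted p 0.0553) and was not called.

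Nfatc1 (chr18:80606205-80713071) stood higher at each later time. It had 92 and 108 expected counts at 0 h, 123 and 145 after 2 h, then 163 and 178 at 6 h, or 1.35 and 1.51 TPM, 1.78 and 2.22 TPM, and 2.53 and 2.83 TPM. The 3 times did not overlap. In log2 fold change it was higher by 0.66 (SE 0.26, adjusted p 0.046) at 2 h, under the fold threshold, and 1.08 (SE 0.26, adjusted p 1.22e-04) at 6 h, where it was called. Scaled by library totals, the change at 6 h was 0.84 (adjusted p 0.0068) and not called. With this scaling the 14668 genes at a mean count of 10 or more had a median of -0.251, where median-of-ratios size factors gave -0.004.

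Nfatc3 (chr8:106058840-106130537) was the most abundant of the NFAT genes in every library. It was at 5.61 and 5.48 TPM at 0 h, 5.17 and 4.98 TPM at 2 h, and 8.39 and 8.17 TPM at 6 h. Both 6 h libraries lay above the other 4. Relative to 0 h its log2 fold change was 0.06 (SE 0.14, adjusted p 0.85) at 2 h and 0.76 (SE 0.14, adjusted p 4.02e-07) at 6 h, so it passed the adjusted p at 6 h but not the fold threshold. Against 2 h the 6 h change was 0.71 (adjusted p 3.69e-06).

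Nfatc4 (chr14:55823144-55833943) had few counts, with 30 and 46 expected counts at 0 h, 25 and 39 after 2 h, then 13 and 25 at 6 h, so that 0 h and 2 h overlapped and the higher 6 h library equalled the lower 2 h library. DESeq2 put its log2 fold change at -0.00 (adjusted p 0.997) at 2 h and -0.68 (SE 0.60, adjusted p 0.37) at 6 h. At this depth, a change of the size seen in Nfatc3 could not be told from the spread between replicates.

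The make-up of the NFAT transcripts moved with these changes. Nfatc2 took 8.56% and 6.35% of the summed TPM of the 4 genes at 0 h, 22.9% and 27.8% after 2 h, then 9.63% and 12% at 6 h. Nfatc3 took 68.6% and 65.7% at 0 h, 53.7% and 45.1% after 2 h, then 67.9% and 62.7% at 6 h. Nfatc4 took 2.02% to 9.83% over all libraries and Nfatc1 17.3% ± 1.13 at 0 h and 21.1% ± 0.872 at 6 h (SD, n = 2). The sum of the 4 genes was 8.26 ± 0.113 TPM at 0 h, 10.3 ± 1.01 TPM at 2 h and 12.7 ± 0.481 TPM at 6 h (SD, n = 2). These shares follow from the levels above and were not tested.

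**Figure D2:**
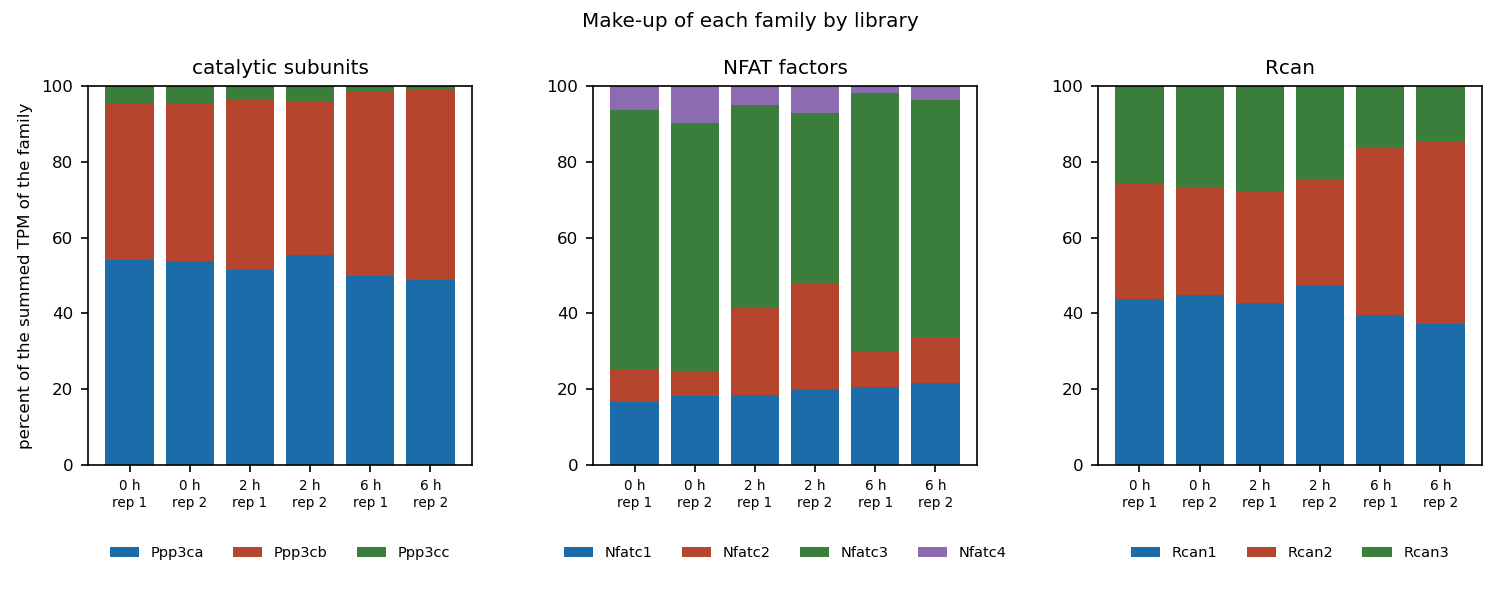
Share of each gene in the summed TPM of its family (vertical axis, percent) in each of the 6 libraries (horizontal axis, time and replicate). Nfatc2 (red, middle panel) widens to 22.9% and 27.8% in the 2 h libraries, Rcan2 (red, right panel) to 44.5% and 48.3% at 6 h, and Ppp3cc (green, left panel) narrows to 1.26% and 1.06% at 6 h.

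The Rcan genes encode small proteins that bind calcineurin. Rcan1 (chr16:92391953-92470867, minus strand) was at 72.2 and 72.9 TPM at 0 h, 66.1 and 80.8 TPM at 2 h, and 69.3 and 68.2 TPM at 6 h. The 2 h replicates spanned all the other libraries. In normalized counts Rcan1 was at 1979 and 1980 at 0 h, 2043 and 2451 after 2 h, then 2141 and 2083 at 6 h. Its log2 fold change was 0.18 (SE 0.13, adjusted p 0.355) at 2 h, 0.09 (SE 0.13, adjusted p 0.608) at 6 h and -0.09 (adjusted p 0.622) at 6 h against 2 h. It was called in no comparison, with DESeq2 as described or in any alternative that was run. With GC correction its change at 2 h was 0.23, with an adjusted p of 0.0444.

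Rcan2 (chr17:43801351-44039516) was at 50.2 and 46.1 TPM at 0 h, 46.1 and 47.9 TPM at 2 h, and 78.1 and 89 TPM at 6 h. The 6 h libraries stood apart from the other 4, which overlapped. Log2 fold changes were 0.13 (adjusted p 0.534) at 2 h, 0.99 (SE 0.13, adjusted p 1.70e-13) at 6 h and 0.86 (SE 0.13, adjusted p 2.51e-10) at 6 h against 2 h. The change at 6 h was thus just under the fold threshold, and without 0 h replicate 1 it was 1.09 (adjusted p 4.05e-07) and called.

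Rcan3 (chr4:135412308-135433853) went the other way. It was at 42.6 and 43.6 TPM at 0 h, 43 and 42.5 TPM at 2 h, and 28.2 and 26.9 TPM at 6 h. Here too the 6 h libraries stood apart, below the other 4. Log2 fold changes were 0.12 (adjusted p 0.458) at 2 h, -0.44 (SE 0.11, adjusted p 1.79e-04) at 6 h and -0.56 (adjusted p 1.10e-06) at 6 h against 2 h, under the fold threshold in each. The share of Rcan2 in the summed Rcan TPM was 30.4% and 28.4% at 0 h and 44.5% and 48.3% at 6 h, and that of Rcan3 was 25.8% and 26.8% at 0 h and 16% and 14.6% at 6 h. The sum was 163.8 ± 1.65 TPM at 0 h, 163.2 ± 11.3 TPM at 2 h and 179.8 ± 6.00 TPM at 6 h (SD, n = 2).

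**Figure D3:**
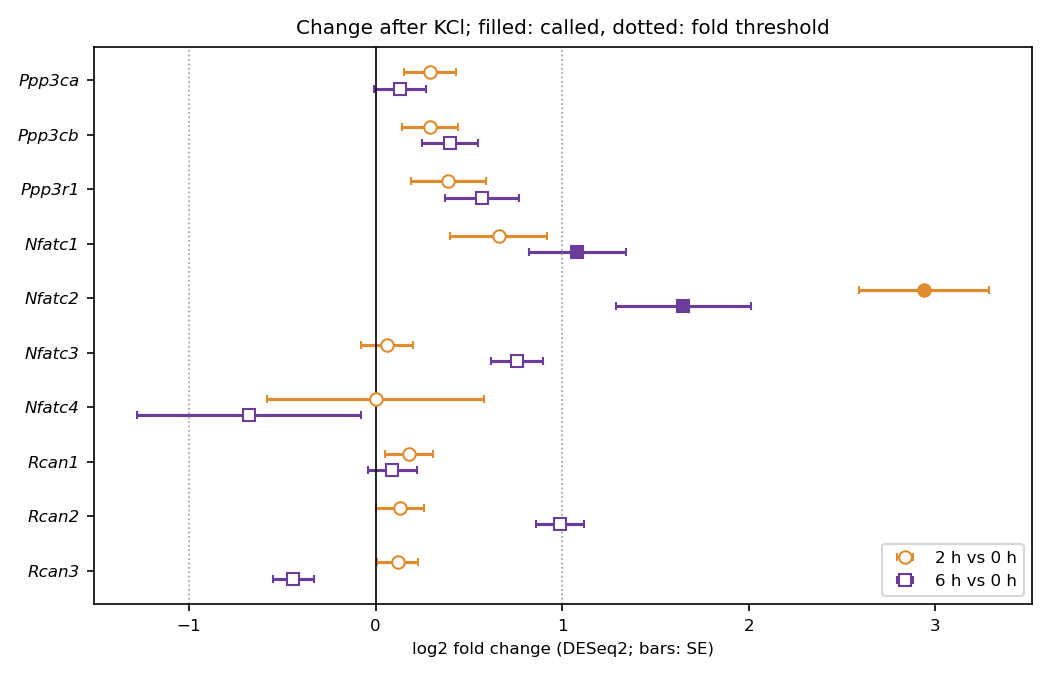
Log2 fold change of each member (horizontal axis) at 2 h (circles) and 6 h (squares) against 0 h, with SE as bars. Filled symbols were called and dotted lines mark the fold threshold of 1. Nfatc2 lies at 2.94 and 1.65, Nfatc1 reaches 1.08 at 6 h, and Rcan2 at 0.99 is just inside the line.

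Nfatc2 and Rcan1 both have more than 1 promoter, so the 250 bases before the annotated starts were read from RefSeq (GRCm38.p6). In all, 13 such windows for 8 of the members were examined. Capitals mark GGAAA, the core to which NFAT binds, and for Rcan1 also TGACGTCA, the CRE element that CREB binds, and TGANTCA, the AP-1 element, on either strand. These 3 motifs do not contain one another. The windows of Nfatc2, chr2:168601658-168601907 for the upstream start and chr2:168590366-168590615 for the downstream start, and of Rcan1, chr16:92466170-92466419 for the upstream and chr16:92400079-92400328 for the internal start, are shown on the transcribed minus strand because the first gene moved and the second, the usual reporter, was not called.
Nfatc2 upstream: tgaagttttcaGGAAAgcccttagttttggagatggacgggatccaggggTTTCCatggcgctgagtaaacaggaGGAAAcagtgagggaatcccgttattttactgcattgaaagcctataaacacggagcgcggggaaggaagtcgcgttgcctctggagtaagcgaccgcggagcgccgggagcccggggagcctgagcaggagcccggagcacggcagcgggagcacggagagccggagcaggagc
Nfatc2 downstream: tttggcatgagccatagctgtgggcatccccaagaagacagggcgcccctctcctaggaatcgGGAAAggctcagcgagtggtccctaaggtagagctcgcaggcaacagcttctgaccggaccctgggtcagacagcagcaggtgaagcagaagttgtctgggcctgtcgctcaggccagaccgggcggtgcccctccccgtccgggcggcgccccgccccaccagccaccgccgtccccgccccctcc
Rcan1 upstream: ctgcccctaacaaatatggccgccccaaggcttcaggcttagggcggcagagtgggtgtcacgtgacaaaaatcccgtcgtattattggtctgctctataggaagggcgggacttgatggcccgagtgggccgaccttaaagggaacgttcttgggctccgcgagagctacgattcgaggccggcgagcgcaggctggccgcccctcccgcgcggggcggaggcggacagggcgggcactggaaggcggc
Rcan1 internal: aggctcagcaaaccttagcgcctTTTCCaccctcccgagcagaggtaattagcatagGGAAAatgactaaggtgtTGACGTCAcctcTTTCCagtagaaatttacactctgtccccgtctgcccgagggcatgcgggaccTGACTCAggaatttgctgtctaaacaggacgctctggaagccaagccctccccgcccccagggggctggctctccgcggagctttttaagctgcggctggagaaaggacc

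The internal Rcan1 window held 3 GGAAA matches, 1 TGACGTCA and 1 TGANTCA, while the upstream window held none of them. The upstream Nfatc2 window held 3 GGAAA matches and the downstream window 1. Windows of Ppp3cb and Nfatc4, neither of which was called, also held 3 GGAAA matches, and 1 window of Rcan2 held a TGANTCA. Of all 32851 windows of this length, 55.6% held at least 1 GGAAA, 6.39% held at least 3, 1.55% held TGACGTCA and 6.75% held TGANTCA. A match describes the letters of the window and is not a measured binding site. Windows of Ppp3ca and Nfatc1 were not examined, so no motif count is given for Nfatc1, although it was called at 6 h.

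The effective lengths of the members were also compared. RSEM gives these per gene as a mean over its transcripts weighted by abundance, so they move with the mix of transcripts. Nfatc2 had effective lengths of 3133 and 2949 bases at 0 h, 4886 and 4772 bases at 2 h, and 4037 and 3529 bases at 6 h. The 3 times did not overlap. The 0 h values rest on 35 and 26 counts, shared by RSEM among 9 annotated transcripts, so they are poorly determined. The gene reached the mean count of 100 needed for the test only through its 2 h libraries, so its log2 ratios of 0.67 at 2 h and 0.31 at 6 h against 0 h are given as a description with no test. Of the 11233 genes tested, few were called with 2 libraries a group, 0.0178% higher and 0.0178% lower at 2 h, 0.0801% higher and 0.445% lower at 6 h, 0.0267% higher and 0.089% lower at 6 h against 2 h, and no member was among them. Because TPM divides by this length, the mean TPM of Nfatc2 at 0 h and 2 h (0.615 and 2.63) lay closer together than the mean normalized counts (26.5 and 203.2).

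The deposited mean transcript length of Nfatc2 was 3435 and 3263 bases at 0 h, 5204 and 5086 bases at 2 h, and 4359 and 3847 bases at 6 h. In the GENCODE M21 annotation, which may differ from the release the authors used, 9 transcripts of Nfatc2 are listed. The 2 h means were above the lengths of all but 3 of them, which have 6637, 6828 and 5399 bases. Those of 6637 and 6828 bases are protein coding and start at 168590260 and 168590365, beside the downstream window printed above, and all 3 end at the distal 3′ end of the gene. The 3 transcripts that start at the upstream promoter, between 168601632 and 168601657, have 2369 to 2742 bases. The long coding transcripts differ from these in both start and 3′ end, so from the lengths a change of promoter and a change of 3′ end cannot be told apart.

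The effective length of Rcan1 was 1933 and 1928 bases at 0 h, 1909 and 1907 bases at 2 h, and 1902 and 1915 bases at 6 h, a log2 ratio of -0.02 (limma adjusted p 0.617) at 2 h and -0.02 (limma adjusted p 0.361) at 6 h. The transcript from the internal start (2190 bases) and that from the upstream start (2324 bases) are nearly of the same length in the annotation, so a shift between them could move this measure only little. The other members had log2 ratios between -0.05 and 0.08 in all comparisons, apart from Nfatc4, which did not reach the mean count of 100 needed for the test.

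**Figure D4:**
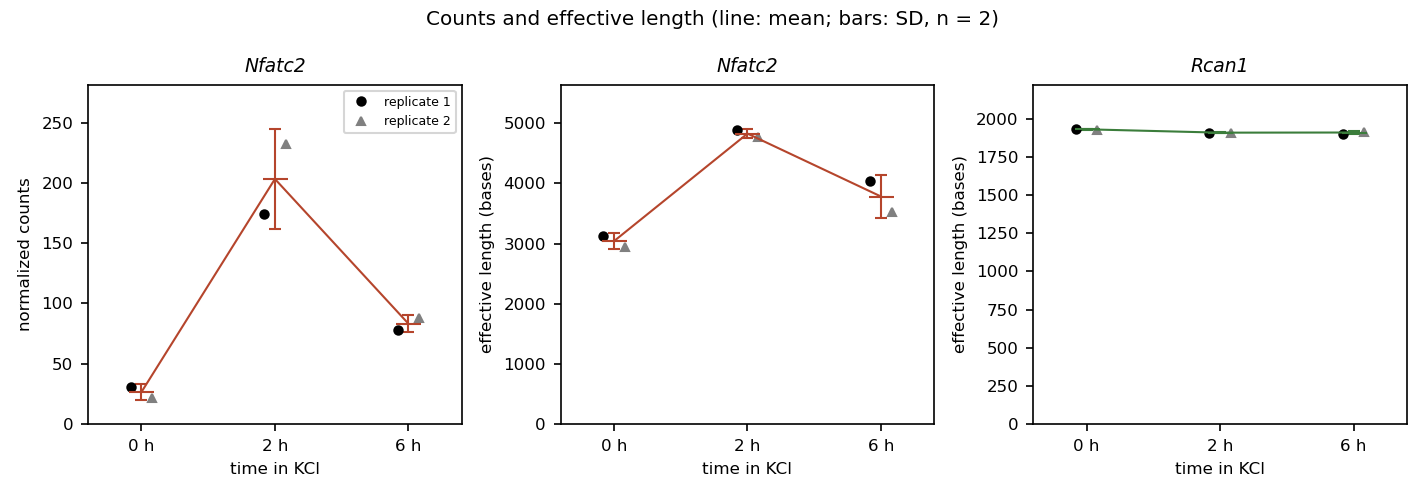
Normalized counts of Nfatc2 (left), effective length of Nfatc2 in bases (middle) and effective length of Rcan1 in bases (right), all on vertical axes from 0, at 0, 2 and 6 h in KCl. Points are replicates, marks joined by a line are means, and bars are SD (n = 2). Counts and length of Nfatc2 are both highest at 2 h, with 4886 and 4772 bases, while Rcan1 stays between 1902 and 1933 bases.

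The genes around the members were then examined in 4 lists of 55 genes in all. The list of calcineurin partners held 13 genes, namely its other subunits, calmodulins, anchors, inhibitors and calcium channels. At 2 h, 0 were called higher and 1 lower (Akap5), beside 3.62% and 5.94% of all genes. At 6 h against 0 h there were 1 higher (Ppp3r2) and 2 lower (Ppp3cc and Cacna1d), where all genes had 9.1% and 10.2%. At 6 h against 2 h there were 1 higher (Akap5) and 2 lower (Ppp3cc and Cacna1d), where all genes had 10.1% and 8.02%. The list's median log2 fold change was 0.19, 0.32 and 0.03, and that of all genes 0.02, 0.00 and -0.01.

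Akap5 anchors calcineurin and protein kinase A at synapses. It was at 19.8 and 17.4 TPM at 0 h, 8.72 and 7.82 TPM at 2 h, and 24.6 and 24.8 TPM at 6 h, so that 2 h was below and 6 h above the other libraries. Its log2 fold change was -1.02 (SE 0.17, adjusted p 4.88e-08) at 2 h and 1.55 (SE 0.17, adjusted p 3.61e-18) at 6 h against 2 h. The first was -0.92 with GC correction and then not called, and leaving out 0 h replicate 1 (-0.96) or 2 h replicate 2 (-0.84) also ended that call.

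Cacna1d encodes an L-type calcium channel, through which depolarization admits calcium. It was at 12.6 and 11.7 TPM at 0 h, 15.4 and 16.4 TPM at 2 h, and 3 and 3.08 TPM at 6 h, with no overlap between times. The log2 fold change was -1.80 (SE 0.13, adjusted p 2.07e-43) at 6 h and -2.38 (SE 0.13, adjusted p 3.48e-75) at 6 h against 2 h. It shared reads with other genes in all 6 libraries and overlaps Chdh and Dcp1a, so its counts are uncertain. Cacna1c, another calcium channel gene of the list, was called shorter in effective length at 6 h against 0 h. Its mean went from 10677 to 8842 bases (log2 ratio -0.27, limma adjusted p 0.0469), where 0.445% of all genes tested were called lower. At 6 h against 2 h the log2 ratio of Cacna1c was -0.29 (limma adjusted p 0.0709) and not called. Ppp3r2, another regulatory subunit gene that lies within the span of Grin3a, had 0 counts in both 0 h libraries, which allows up to 3 counts each, then 6 and 4 at 2 h and 1 and 9 at 6 h. Its call at 6 h (adjusted p 0.0447) rested on these few counts, was lost with library totals (adjusted p 0.0603), with the replicate number as a block (0.0895) and with any 1 library left out (0.0794 and 0.0687 without a 2 h library, no adjusted p without any other), and no fold is given. The most abundant of the list were Ppia, the cyclophilin that carries cyclosporin to calcineurin, with a mean of 2984 TPM over the libraries, and the calmodulin gene Calm2 with 2585 TPM. Ppia, like Cacna1d, shared reads with other genes in all 6 libraries, so its counts are uncertain too. Calm2 had a log2 fold change of 0.41 (adjusted p 8.21e-04) at 2 h and Ppia one of 0.23 (adjusted p 0.118), which became 0.31 (adjusted p 0.00657) with GC correction.

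The second list held 18 genes of kinases that put phosphates back on NFAT, of nuclear transport, and of NFAT relatives and partners. Called higher were Nfat5 at 2 h, Nfat5 and Dyrk1b at 6 h against 0 h, and Dyrk1b at 6 h against 2 h. Called higher were thus 1, 2 and 1 of the 18, where 3.62%, 9.1% and 10.1% of all genes were, and 0 were called lower, where 5.94%, 10.2% and 8.02% of all genes were. By the adjusted p alone, 16 of the 18 were higher and 1 lower at 6 h than at 0 h, against 23.7% and 21.7% of all genes tested, and the list's median log2 fold change was 0.52, against 0.00 over all genes. At 2 h these counts were 7 and 1, against 12.3% and 14.2% of all genes, and 10 and 1 with GC correction, against 20.8% and 14.4%. GC correction left the counts at 6 h against 0 h at 16 and 1, against 26.6% and 23%.

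Nfat5 encodes the relative of NFAT that responds to osmotic stress and does not need calcineurin. It was at 8.66 and 5.51 TPM at 0 h, 16.6 and 12.1 TPM at 2 h, and 18.6 and 18.5 TPM at 6 h. Both later times lay above 0 h. Its change was 1.46 on the log2 scale (SE 0.24, adjusted p 3.17e-08) at 2 h and 1.67 (SE 0.24, adjusted p 5.27e-11) at 6 h. As for Ppp3cb and Ppp3r1, replicate 1 was the higher of the 2 h libraries. Dyrk1b, a kinase of the DYRK family, was at 4.85 and 4.79 TPM at 0 h, 2.67 and 3.52 TPM at 2 h, and 9.34 and 9.92 TPM at 6 h. Its log2 fold change was 1.18 (SE 0.23, adjusted p 1.42e-06) at 6 h and 1.61 (SE 0.24, adjusted p 1.57e-10) at 6 h against 2 h, and the first was 0.94 and not called with library totals. The casein kinase genes Csnk1e (349.5 TPM on average) and Csnk1a1 (255.7 TPM) were the most abundant, and Csnk1e had a log2 fold change of 0.64 (adjusted p 2.94e-06) at 6 h, while Csnk1a1 had one of 0.38 (adjusted p 0.0386).

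**Figure D5:**
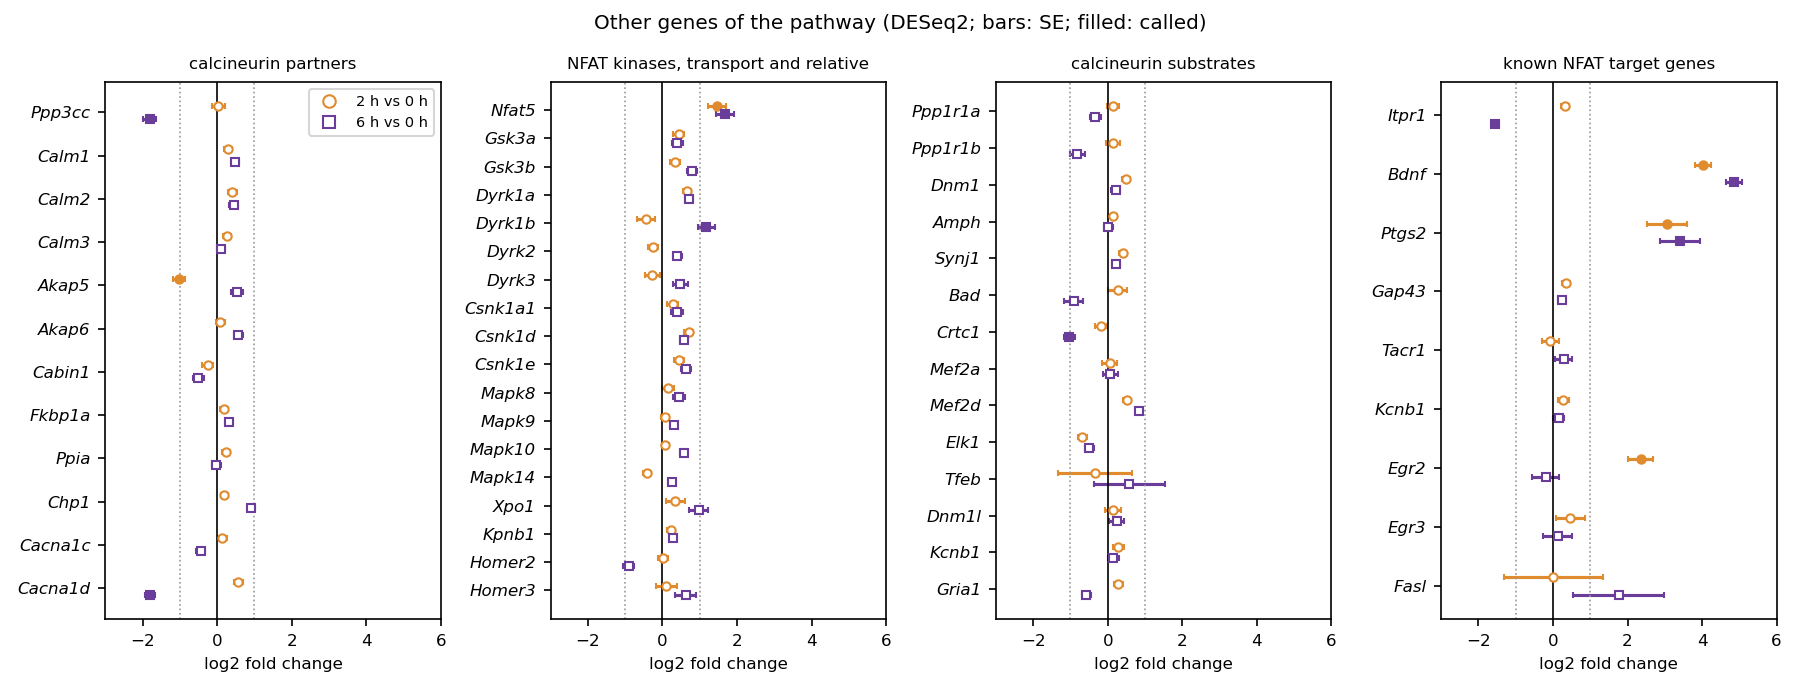
Log2 fold change at 2 h (circles) and 6 h (squares) against 0 h for the genes of the 4 lists that had an adjusted p in all comparisons, Ppp3r2 left out, with SE as bars. Filled symbols were called and dotted lines mark a log2 fold change of 1 in either direction. Bdnf, at 4.03 and 4.85, lies farthest to the right, and Cacna1d at -1.80 and Ppp3cc at -1.81 lie farthest to the left.

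Of the 14 genes for substrates of calcineurin other than NFAT, none was called at 2 h (0 higher and 0 lower in DESeq2), beside 3.62% and 5.94% of all genes. By the adjusted p alone, 3 were higher and 1 lower at 2 h, where all genes had 12.3% and 14.2%, and 7 and 1 with GC correction, where all genes had 20.8% and 14.4%. At 6 h against 0 h 1 was called lower, Crtc1 (10.2% of all genes), and at 6 h against 2 h 1 was called lower, Bad (8.02% of all genes), and none was called higher in either (9.1% and 10.1%). Without the fold threshold, 1 was higher and 5 lower at 6 h than at 0 h, where all genes had 23.7% and 21.7%, and 3 and 5 with GC correction, where all genes had 26.6% and 23%. Against 2 h, again by the adjusted p alone, 1 was higher and 6 lower at 6 h, where all genes had 24.1% and 21.2%, and 1 and 7 with GC correction, where all genes had 24.7% and 26.3%. Crtc1, a coactivator of CREB, was at 37.7 and 35.8 TPM at 0 h, 24.6 and 32.9 TPM at 2 h, and 16.1 and 16.3 TPM at 6 h. Its log2 fold change at 6 h was -1.03 (SE 0.15, adjusted p 3.02e-10), and it was -0.90 with GC correction and -0.97 without 0 h replicate 1, neither of them called. Bad, which promotes apoptosis when its phosphates are removed, was at 26 and 33.3 TPM at 0 h, 27.3 and 36.9 TPM at 2 h, and 12.1 and 16 TPM at 6 h. At 6 h against 2 h its change was -1.18 on the log2 scale (SE 0.26, adjusted p 3.10e-05), which was -0.91 and not called without 2 h replicate 2, and it overlaps Gpr137 and shared reads in 4 libraries. The glutamate receptor gene Gria1 (151.4 TPM on average) and Amph (142.2 TPM), a protein of endocytosis, were the most abundant. The log2 fold change of Gria1 at 6 h was -0.58 (adjusted p 1.16e-05), and the value for Amph was 0.02 (adjusted p 0.904).

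The last list held 11 known target genes of NFAT, chosen from cells of several tissues, of which 10 were tested against 0 h and 9 at 6 h against 2 h, where Tnf had no adjusted p. Called higher at 2 h were 3 of them (Bdnf, Ptgs2 and Egr2) and none was called lower, beside 3.62% and 5.94% of all genes. Against 0 h at 6 h, Bdnf and Ptgs2 were called higher and Itpr1 lower (all genes 9.1% and 10.2%), and against 2 h none was called higher and Itpr1 and Egr2 lower (all genes 10.1% and 8.02%). The list's median log2 fold change was 0.34, 0.20 and -0.11 in these comparisons, against 0.02, 0.00 and -0.01 over all genes. Most of these genes have other activators as well.

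Bdnf, a neurotrophin gene induced by activity, was at 1.87 and 1.51 TPM at 0 h, 28.6 and 20.5 TPM at 2 h, and 42 and 42.5 TPM at 6 h. Its log2 fold change was 4.03 (SE 0.22, adjusted p 3.41e-71) at 2 h and 4.85 (SE 0.22, adjusted p 6.40e-104) at 6 h. Ptgs2, which encodes the cyclooxygenase COX-2, went from 0.08 and 0.16 TPM to 0.86 and 0.86 TPM at 2 h and 1.18 and 1.03 TPM at 6 h, with log2 fold changes of 3.06 (SE 0.53, adjusted p 1.70e-07) and 3.41 (SE 0.53, adjusted p 1.13e-09). Without 0 h replicate 2 these were 3.70 and 4.05, and over all libraries left out in turn they ranged from 2.64 to 3.70 and from 2.99 to 4.05. Bdnf and Ptgs2 had no overlap between 0 h and the later times. Egr2, an early growth response factor, was highest at 2 h. It was at 1.06 and 0.88 TPM at 0 h, 4.31 and 4.39 TPM at 2 h, and 0.62 and 0.87 TPM at 6 h, with log2 fold changes of 2.35 (adjusted p 2.58e-11) at 2 h and -2.55 (adjusted p 1.95e-12) at 6 h against 2 h. It was not called at 6 h against 0 h (-0.20, adjusted p 0.7).

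Itpr1, the gene of an IP3 receptor that releases calcium from internal stores, went down late. It was at 30.5 and 28.6 TPM at 0 h, 31.4 and 33.6 TPM at 2 h, and 8.48 and 9.16 TPM at 6 h. The 6 h libraries lay below the other 4, as for Ppp3cc and Cacna1d. The log2 fold change was 0.32 (adjusted p 0.0146) at 2 h, -1.56 (SE 0.11, adjusted p 4.32e-43) at 6 h and -1.88 (SE 0.11, adjusted p 5.30e-62) at 6 h against 2 h. Gap43, a protein of growth cones, was the most abundant of the list at 1483 TPM on average, and its log2 fold change was 0.35 (adjusted p 0.00329) at 2 h and 0.24 (adjusted p 0.0384) at 6 h, the latter 0.19 (adjusted p 0.146) with GC correction.

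Finally, the genes whose time course was most like that of Rcan1 and of Nfatc2 were sought among the 11183 genes whose mean normalized count was 100 or more, by the root-mean-square difference of log2 normalized counts over the 6 libraries after each gene was centred on its mean. For Rcan1 they were Clip3 (0.015), Ssr2 (0.018), Rps19bp1 (0.024), Dbi (0.025) and Atp5h (0.027). All 5 were highest in 2 h replicate 2, as Rcan1 was. Their log2 fold changes were 0.15 to 0.18 at 2 h and 0.05 to 0.07 at 6 h. For Nfatc2 they were Gm29084 (0.188), Gla (0.212), Gm37917 (0.258), Gpr19 (0.260) and Zfp184 (0.264), at log2 fold changes of 2.52 to 3.41 at 2 h and 1.44 to 1.83 at 6 h. Atp5h, Gm29084 and Gm37917 shared reads with other genes in all 6 libraries, and Gm29084 lies antisense to Pard3b. Gla, which encodes the lysosomal alpha-galactosidase, was at 320.5 and 329.5 normalized counts at 0 h, 2055 and 2164 after 2 h, then 887.1 and 873.4 at 6 h. These likenesses are descriptions over 6 libraries. The genes were chosen over the same libraries, so their shared highest library and similar fold changes follow from that choice.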

How the data were processed

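Poly(A) RNA of 6 libraries was sequenced as stranded read pairs. Per the study's methods, the authors trimmed the reads and mapped them to mm10 (GRCm38) with RSEM, and the submitters' processing notes name RSEM 1.3.0 and Bowtie2 2.2.9. The annotation release and the strand setting of RSEM are not given in the sources used here. The expected counts deposited by the authors are not normalized and need not be whole. The TPM values deposited by the authors are scaled for transcript length and to the same total in each library. The lengths and effective lengths deposited by the authors are in bases. FPKM values were not used here.

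Groups were read from the labels. Identifiers were matched to symbols for 42462 genes. Expected counts were rounded, and the 22515 genes with a count were tested in 1 fit of all libraries with DESeq2 1.42.0 (R 4.3.3, median-of-ratios size factors, Wald test, Benjamini-Hochberg adjustment over genes kept by its filter). The use of DESeq2 and the thresholds follow the study's methods. Calls needed an adjusted p no higher than 0.05 with a log2 fold change above 1 in size. Log2 effective length was tested with limma 3.58.1 over genes whose mean count was 100 or more and called at the same p with a log2 ratio of 0.2 or more in size. Both tests were tested on simulated data. The alternatives were edgeR 4.0.16, TMM factors, library totals, a minimum mean count of 10, the replicate number as a block, a GC correction (a loess of log2 counts on GC content in each library), both together, and leaving out each library. Precision from counts covers counting error only, and a count of 0 was taken to allow 3 counts.

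The members and lists were chosen with earlier results of these data known. Named are all members, each called gene and the 2 most abundant genes of the 4 lists, and the 5 genes most like Rcan1 and most like the member with the largest called change.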

Additional observations from a re-analysis of the deposited data

How the results depend on the processing

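With 2 libraries a group, the lone library left when a replicate was omitted was assumed to vary like the other groups, and depth limits what can be said of Nfatc4, Ptgs2 and Ppp3r2. Over the alternatives, 372 values of members kept their direction and side of the threshold, 15 turned sign, 2 lost a call and 1 gained one. For the pathway genes called in DESeq2 in any comparison these numbers were 428, 12, 18 and 4. The other genes of the lists were not followed one by one in this way. Why these results moved was not tested, apart from the fewer libraries where a replicate was left out.

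The replicate numbers do not establish pairs. Across 12290 genes, libraries with the same number correlated in their deviations from the group means at 0.281 between 0 h and 2 h, -0.00226 between 0 h and 6 h, and 0.152 between 2 h and 6 h (0.119, -0.0617 and 0.0438 after GC correction). With the replicate block no call of a member changed, and Nfatc2 was at 2.93, 1.65 and -1.29.

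At 2 h vs 0 h, 0 pathway genes were called lower with GC correction and 0 with the replicate block and GC correction, against 1. Library totals at 6 h vs 0 h gave 1 member higher (Nfatc2), 3 pathway genes higher and 7 lower, and 1032 of all genes higher. Leaving out a library gave 0 to 1 pathway genes lower at 2 h vs 0 h, 0 to 1 members lower and 2 to 4 pathway genes higher at 6 h vs 2 h.

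For effective length over all genes, a minimum mean count of 10 gave 7 higher at 2 h vs 0 h, 29 lower at 6 h vs 0 h and 2 lower at 6 h vs 2 h, and the deposited length gave 1 higher and 19 lower in the first and second of these. With the replicate block there were 0 higher and 0 lower at 2 h vs 0 h, 0 and 2 at 6 h vs 0 h, and 0 and 3 at 6 h vs 2 h. Leaving out a library gave 0 to 2 higher and 0 to 1 lower at 2 h vs 0 h, 0 to 5 higher and 0 to 18 lower at 6 h vs 0 h, and 0 to 5 higher and 0 to 19 lower at 6 h vs 2 h.

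Among the members and the pathway genes called in DESeq2 in any comparison, all sign changes were in values that were not called. With library totals they were at 2 h vs 0 h Nfatc3 -0.11, Rcan2 -0.04, Rcan3 -0.04 and Ppp3cc -0.14, and at 6 h vs 0 h Ppp3ca -0.11 and Rcan1 -0.15. With GC correction they were at 6 h vs 2 h Ppp3cb -0.56, Ppp3r1 -0.25, Nfat5 -0.04 and Ppp3r2 -0.12, and with the replicate block added -0.54, -0.25, -0.03 and -0.56, while the replicate block alone gave Ppp3r2 -0.32. Other genes of the lists, not called in any comparison, also turned sign with GC correction at 6 h vs 2 h. Among them were Dnm1l (0.09 to -0.33) and Calm2 (0.03 to -0.23). Leaving out 1 library at a time, the values at 2 h vs 0 h went from -0.41 to 0.30 for Nfatc4 (positive without 0 h replicate 2 or 2 h replicate 1), from -0.03 to 0.05 for Ppp3cc (negative without 2 h replicate 1) and from -0.00 to 0.48 for Bad (lowest without 2 h replicate 2), and at 6 h vs 0 h from -0.44 to 0.01 for Egr2 (positive without 6 h replicate 1). The values at 6 h vs 2 h went from -0.30 to 0.03 for Ppp3ca (positive without 2 h replicate 1) and, each with its sign turned without 2 h replicate 2, from -0.06 to 0.32 for Ppp3cb, from -0.07 to 0.51 for Ppp3r1, from -0.21 to 0.06 for Rcan1 and from -0.05 to 0.56 for Nfat5, while Ppp3r2 went from -2.24 to 0.93. Calls gained were those of Bad at 6 h vs 0 h with library totals (-1.16) and Bdnf at 6 h vs 2 h without 2 h replicate 1 (1.10), among others.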
